A study of Mus musculus with 3 samples.

Results

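Col1a1, Col6a1, Sparc, Mmp14 and Clcn7 are genes of the bone matrix and of its breakdown. They were chosen by name, as the spots with a value on all 3 arrays whose platform annotation gives exactly 1 gene. This took 5 spots of 6039 with a value on every array, and 5 of 3462 named genes. Each gene had 1 such spot, so the mean over its spots is the value of that spot. Mmp14 had 2 further spots that lacked a value on at least 1 array, which are given with that gene.

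RNA of castrated C57BL/6 mice given testosterone was compared with that of castrated mice given placebo on 3 two-colour arrays, 1 for each matched pair of mice (n = 3 pairs), which are called T1, T2 and T3 here. The mice lost their testes at 7 weeks of age, carried slow-release pellets for 4 weeks (12.5 mg, made to release over 60 days) and were 17 weeks old by the labels. All animals compared were castrated, so the comparison is of hormone replacement with its absence, and intact mice were not analysed here. The testosterone sample carried the dye Cy3 on T2 and Cy5 on the other 2 arrays. The labels call the tissue bone marrow, while the RNA came from pulverized femora, tibiae and humeri, so RNA of marrow cells, of bone cells and of adhering tissue can be present. The values are log ratios, read as log2 of testosterone over placebo, so that 0 means equal signal and 1 a doubling; the base is inferred from the range of the values, and with a natural log every fold given would be larger. The design text calls the testosterone channel experimental, which makes this direction likely but does not settle it. In such bulk samples, fewer cells of a type and less RNA per cell cannot be told apart.

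The mineralised matrix of bone is built by osteoblasts, mainly from type I collagen, a triple helix of chains encoded by Col1a1 and Col1a2. Type VI collagen, of which Col6a1 encodes a chain, forms beaded filaments around cells, and Sparc (osteonectin) is a secreted glycoprotein that binds collagen and calcium. Osteoclasts dissolve the mineral by pumping acid, for which the chloride and proton exchanger encoded by Clcn7 supplies the counter-ion, and Mmp14 encodes a membrane-anchored metalloproteinase that cuts collagen and activates other proteases. Androgens act on both bone-forming and bone-resorbing cells, and loss of the testes lowers bone mass in mice.

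Among the 5 genes, Col6a1 alone passed the threshold, an adjusted p under 0.05 by limma with Benjamini-Hochberg adjustment over all genes. It was lower with testosterone, as were 3.24% of the 3462 genes tested, while 1.68% were higher and 4.91% passed in either direction. Of the 6039 spots 2.83% passed. Col6a1 and Sparc were below 0 on all 3 arrays, as were 33.9% of all genes, and Clcn7 was above 0 on all 3, as were 18.1%. Col1a1 and Mmp14 had mixed signs. As deposited, all 5 genes had their lowest ratio on T2, which was the lowest array for 44% of all genes. With the sign of T2 turned, Col1a1 (1.163), Col6a1 (1.005) and Sparc (1.049) would instead be highest there, and Mmp14 (0.025) and Clcn7 (-0.294) still lowest. As deposited, T2 correlated at 0.422 with T1 and at 0.734 with T3 over tested spots. Both correlations would be negative with T2 turned. As T2 is the single array with testosterone in Cy3, a dye effect and a trait of that mouse pair cannot be told apart.

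**Figure D1:**
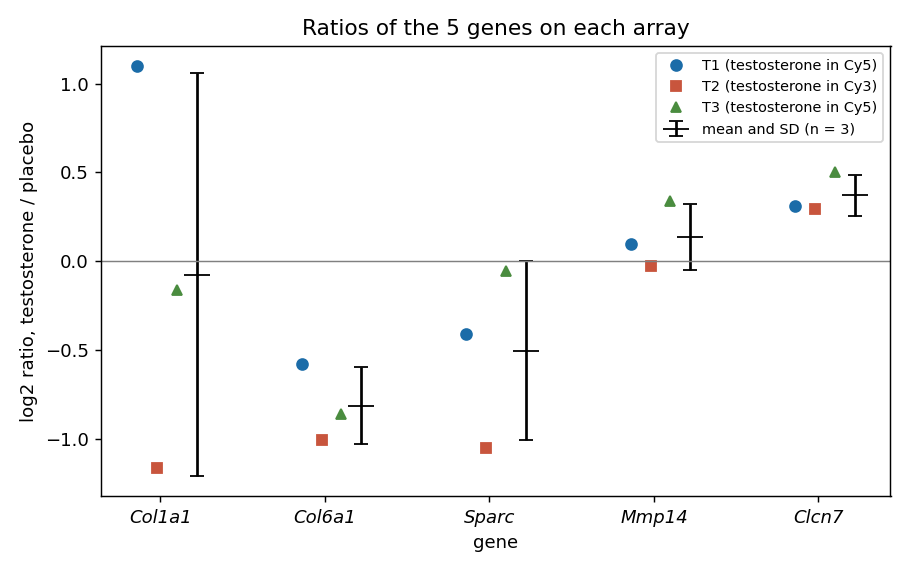
Log2 ratios of testosterone to placebo (vertical axis) of the 5 genes on each array, with the mean and SD over 3 mouse pairs as black bars. The Clcn7 points lie between 0.29 and 0.50 and the Col6a1 points between -1.005 and -0.58, while the Col1a1 points run from -1.16 to 1.10.

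Col1a1, the major collagen chain of bone, had ratios of 1.10, -1.16 and -0.16 in pairs T1, T2 and T3. Its signal was thus 2.14-fold higher with testosterone in the first pair, 2.24-fold lower in the second and 1.12-fold lower in the third. The mean was -0.075 ± 1.13 (SD, n = 3; adjusted p = 0.908 by limma). Its moderated 95% interval was -0.87 to 0.72, or ratios from 0.545 to 1.65. That interval rests on a standard error of 0.345 that draws on the spread shared over genes. The values on T1 and T2 lie outside it. On T1, 1 of the 3462 genes had a higher ratio than Col1a1, and on T2 31 genes had a lower one. Its SD was exceeded by that of 3 genes, against a median SD of 0.167. T1 and T3, which share their dye orientation, differed by 1.26. Without T1 the mean was -0.66 and passed (adjusted p = 0.00338 by limma), although the SD of the 2 values left was 0.71. The standard error of 0.162 in that fit drew on the spread shared over genes, which carried 33.4 degrees of freedom.

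The partner chain Col1a2 had the same order of arrays, its ratios being 0.42, -1.11 and -0.28 (mean -0.32 ± 0.76, n = 3; adjusted p = 0.411 by limma). By Euclidean distance over the 3 ratios, the genes nearest to Col1a1 were Arrb2 (distance 0.59), an adaptor of receptor internalisation, Mmp9 (0.608), a gelatinase of osteoclasts and neutrophils, and Col1a2 (0.691). No gene lay within a distance of 0.3. The ratios of Mmp9 were 0.68, -0.73 and -0.15 in this order. The markers of other marrow cells also differed between pairs. Of all 3462 genes 1520 were above 0 on T1, 1275 on T2 and 1394 on T3. All 5 measured neutrophil genes were above 0 on T1, 4 on T2 and none on T3 (medians 0.596, 0.107 and -0.154). Of 8 monocyte and macrophage genes 7, 5 and 6 were above 0 on T1, T2 and T3 (medians 0.25, 0.108 and 0.12). Of 6 skeletal muscle genes 1 was above 0 on T1 and none on T2 or T3, with medians of -0.04, -0.799 and -0.429. These are ratios, so no marker can be called absent, and the part of such cells in the Col1a1 values was not tested.

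Col6a1 fell with testosterone in every pair, at -0.58, -1.005 and -0.86 in pairs T1, T2 and T3. This is 1.49-fold, 2.01-fold and 1.81-fold lower signal. The mean was -0.81 ± 0.22 (SD, n = 3; 1.76-fold lower; adjusted p = 0.0107 by limma over genes and 0.0154 over spots), with a 95% interval from -1.08 to -0.55. Only 39 of the 3462 genes had a lower mean. With T2 left out (-0.72) it did not pass over genes (adjusted p = 0.107 by limma) but did over spots (0.0426). With T3 left out (-0.79) it passed in neither fit (adjusted p = 0.17 over genes and 0.205 over spots), and with the sign of T2 turned the mean was -0.14. The nearest genes were Gch1 (distance 0.084), the first enzyme of tetrahydrobiopterin synthesis, B3gnt2 (0.303), a glycosyltransferase, and Csk (0.305), a kinase that restrains Src-family kinases. All 3 passed as lower. Col6a3, which encodes another chain of the same trimer, had 0.035 on T1, -0.64 on T2 and -0.08 on T3 (mean -0.23 ± 0.36, adjusted p = 0.326 by limma), so its values were above those of Col6a1 on each array.

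The bases just before the annotated start of Col6a1 are shown as the gene that passed. The stretch is chr10:76726045-76726194 of GRCm38.p6, minus strand, from RefSeq, and capitals mark CCTCCC.
Col6a1: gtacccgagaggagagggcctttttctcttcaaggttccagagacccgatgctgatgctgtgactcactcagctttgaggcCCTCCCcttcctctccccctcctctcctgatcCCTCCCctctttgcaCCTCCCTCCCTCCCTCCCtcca
It holds 6 matches of CCTCCC, of which those in the last run overlap. Within the 250 bases before the start, 38.0% of 32817 windows held at least 1 CCTCCC or its reverse complement, and 13.25% held 2 or more. The share with as many as 6 was not counted. The Col6a1 window held no TATAAA (the TATA box, in 12.4% of windows), no GGGCGG (the GC box, 32.7%), no AGAACA (the hexamer of androgen response elements, 16.1%) and no CACGTG (the E-box, 6.0%).

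No other collagen chain passed. Of 37 listed chains 15 had a spot and 6 a value on all arrays, and of these 1 (Col6a1) was lower, 0 were higher and 5 did not pass. Of all genes 3.24% were lower and 1.68% higher. All 6 means were below 0, as were 2162 of all 3462, with a median of -0.204 against -0.0707 for all genes. Every one was lowest on T2 as deposited, as were 44% of all genes. All 6 lay below 0 on T2, where 1275 of all 3462 genes lay above it. With the sign of T2 turned, which would make its correlation with both other arrays negative, the 6 would lie above 0. Col3a1, a fibrillar collagen of soft connective tissue and vessels, had -0.26, -0.34 and 0.06 on T1, T2 and T3 (mean -0.18 ± 0.21), and Col4a1, a chain of basement membranes, had -0.07, -0.32 and -0.08 (mean -0.16 ± 0.14). Of 6 measured genes of collagen processing 0 passed (median -0.0672; 1 had an unadjusted p under 0.05 by limma, as had 972 of all 3462 genes, or 28.1%). These included the lysyl hydroxylase Plod2 (0.41 ± 0.20), the collagen chaperone Serpinh1 (-0.32 ± 0.35) and P4hb, a subunit of prolyl hydroxylase (-0.12 ± 0.16). The ratios of Serpinh1 were -0.30, -0.68 and 0.02 in the order T1, T2, T3.

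Sparc had -0.41 on T1, -1.05 on T2 and -0.054 on T3, which is 1.33-fold, 2.07-fold and 1.04-fold lower with testosterone. All 3 values were below 0, yet the lowest was far from the others. The mean was -0.50 ± 0.50 (SD, n = 3) and did not pass (adjusted p = 0.119 by limma). Its moderated 95% interval, not adjusted for the number of genes tested, was -0.91 to -0.096. The values on T2 and T3 lie outside that interval, which draws on the spread shared over genes. A larger SD was found in 3.32% of genes. Without T1 the gene passed (-0.55, adjusted p = 0.0144 by limma), although the SD of the 2 values left was 0.704. The standard error of 0.161 in that fit again drew on the spread shared over genes. With a dye term Sparc passed as well (-0.64, adjusted p = 0.0354 by limma). T2 is the only Cy3 array, so in that fit its value adds nothing to the residual spread. The standard error was 0.113 there, against 0.176 without the term. Without T2 the mean was -0.23 (adjusted p = 0.406), and with the sign of T2 turned it was 0.196. Its nearest genes were Trim28 (distance 0.275), a corepressor, Sf1 (0.284), a splicing factor, and Dpf2 (0.29), a subunit of chromatin remodelling complexes, none of which passed.

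Among the 4 members with a window in the promoter table, Sparc is the one that held the AGAACA hexamer, so its sequence is shown with that hexamer or its reverse complement in capitals. The stretch is chr11:55420081-55420230 of GRCm38.p6, minus strand, from RefSeq.
Sparc: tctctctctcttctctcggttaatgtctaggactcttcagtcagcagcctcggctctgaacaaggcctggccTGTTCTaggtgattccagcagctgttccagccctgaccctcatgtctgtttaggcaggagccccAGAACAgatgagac
The stretch holds 2 matches, on opposite strands, and 1.81% of the windows held 2 or more. A match of letters is a description and no measure of binding.

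Of 40 listed non-collagenous matrix genes 10 were measured on all arrays and 0 passed by limma. Of the 10, 3 had an unadjusted p under 0.05, against 28.1% of all genes. Their median was 0.00317, with 5 means above and 5 below 0. The small proteoglycan Lum had 0.33 ± 0.26 and the elastic fibre protein Eln 0.38 ± 0.38. Both had their highest ratio on T2, at 0.63 and 0.72, where Sparc had its lowest. The calcification inhibitor Mgp had the highest mean of the list, 0.57 ± 0.87, at 0.15 on T1, -0.009 on T2 and 1.57 on T3. Fibronectin (Fn1), the matrix protein on which cells assemble collagen, had 0.30, -0.50 and 0.05.

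**Figure D2:**
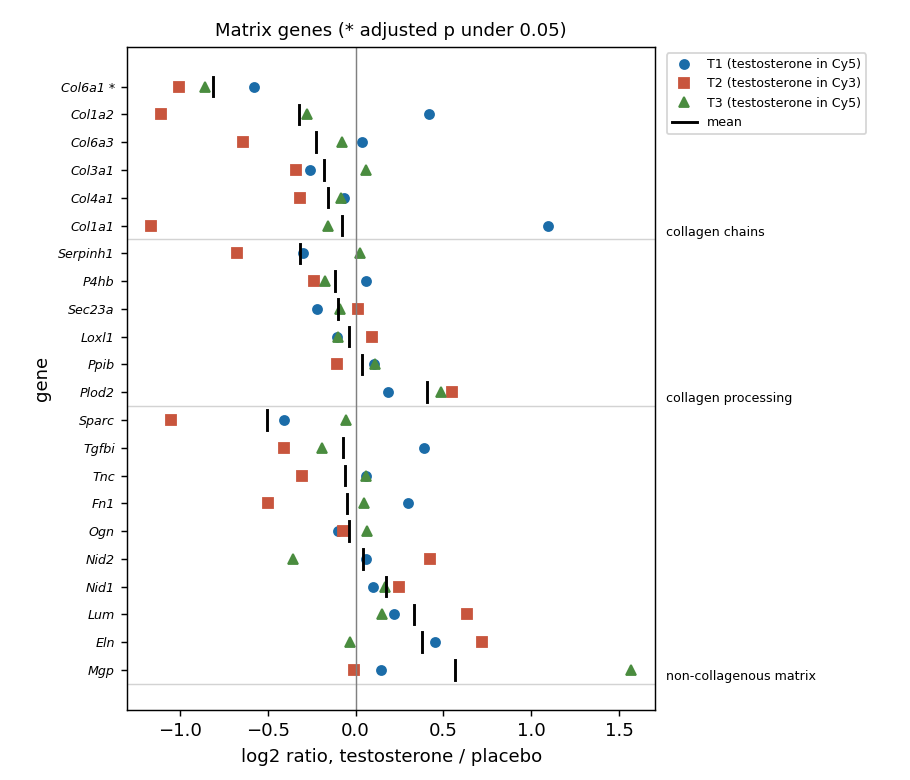
Log2 ratios of testosterone to placebo (horizontal axis) of the measured collagen chains, collagen processing genes and non-collagenous matrix genes, with a symbol per array and a black bar at the mean of 3 pairs. Col6a1, marked with an asterisk, is the gene that passed, and T2, with its sign as deposited, is the lowest array for all 6 collagen chains.

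Mmp14 had 0.095 on T1, -0.025 on T2 and 0.34 on T3. Its values lay close to 0 on T1 and T2, and the highest, on T3, was a 1.27-fold higher signal. The mean was 0.14 ± 0.19 (SD, n = 3; adjusted p = 0.438 by limma). Its moderated 95% interval was -0.12 to 0.39, or ratios from 0.922 to 1.31. The 2 Mmp14 spots outside the rule, both made from the same sequence record, gave -0.156 on T1 and 0.414 on T3 for the first and -0.035 on T3 for the second. On T3 the 3 Mmp14 spots thus ran from -0.035 to 0.414, so spots of this gene differed on 1 array by more than the mean itself. The nearest genes to Mmp14 were Ostm1 (distance 0.0666), which encodes the partner subunit of the Clcn7 exchanger, Dmtn (0.0667), a membrane skeleton protein, and Tmx2 (0.093), a thioredoxin-related membrane protein. As many as 289 genes lay within a distance of 0.3, so this neighbourhood is crowded.

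Among 36 listed matrix proteases and inhibitors 13 were measured on all arrays and 0 passed by limma (median -0.003). Of the 13, 1 had an unadjusted p under 0.05, against 28.1% of all genes. The collagenase Mmp13, which osteoblast-lineage cells release, had -0.29 ± 0.12, and Mmp16, a membrane-anchored relative of Mmp14, had -0.23 ± 0.09. Both were below 0 on all 3 arrays, with adjusted p of 0.123 and 0.179 by limma. Plaur, the urokinase receptor, had 0.24 ± 0.17. Mmp17, another membrane-anchored form, had -0.13 ± 0.07, the neutrophil collagenase Mmp8 had 0.22 ± 0.33 and Mmp9 had -0.07 ± 0.70. Of the tissue inhibitors, Timp1 had 0.35 ± 0.68 with 1.11 on T2 alone far above 0, Timp2, which links Mmp14 to its substrate pro-Mmp2, had 0.05 ± 0.39, and Timp3 had 0.03 ± 0.29.

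Clcn7 had 0.31 on T1, 0.29 on T2 and 0.50 on T3, or 1.24-fold, 1.23-fold and 1.42-fold higher signal with testosterone. It was the most even of the 5 genes, with a range of 0.21. The mean was 0.37 ± 0.12 (SD, n = 3; 1.29-fold) and did not pass over all genes (unadjusted p = 0.00669, adjusted p = 0.0702 by limma). Its moderated 95% interval, not adjusted for the number of genes tested, was 0.14 to 0.61. A higher mean was found for 233 of 3462 genes. Without T1 (0.40) it passed over genes (adjusted p = 0.0406 by limma) and not over spots (0.0669), and without T2 or T3 the means were 0.41 and 0.30 (adjusted p = 0.232 and 0.369 over genes). With the sign of T2 turned the mean was 0.17. The nearest genes were Tmf1 (distance 0.0582), a Golgi protein, 2310001K24Rik (0.0619) and Gla (0.0624), a lysosomal galactosidase, among 130 genes within a distance of 0.3.

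Lysosomal genes often carry the E-box CACGTG, the core of the site read by the factor Tfeb, so the Clcn7 sequence is shown with that hexamer in capitals. The stretch is chr17:25133241-25133390 of GRCm38.p6, plus strand, from RefSeq, and its last 13 bases lie inside another annotated transcript of the gene. Those bases include part of the marked hexamer, so it does not lie wholly before the start of that transcript.
Clcn7: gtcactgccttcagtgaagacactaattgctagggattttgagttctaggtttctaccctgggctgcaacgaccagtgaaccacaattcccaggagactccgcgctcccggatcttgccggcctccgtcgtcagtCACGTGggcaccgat
It holds 1 match, and 6.0% of windows held at least 1. The other Clcn7 window and those of Col6a1, Sparc and Mmp14 held none, and the Mmp14 window held 2 GGGCGG matches. CCTCCC and CACGTG were picked for the search after the windows had been read.

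Around Clcn7, 1 of 9 measured genes of the CLC family and of lysosomal acidification passed, against 4.91% of all genes. This was Clcn3, an endosomal chloride and proton exchanger of the same family, which rose in every pair (0.36, 0.50 and 0.56; mean 0.47 ± 0.10, n = 3; 1.39-fold; adjusted p = 0.0467 by limma). It did not pass when T2 (adjusted p = 0.223) or T3 (0.275) was left out, or with each array centred on its median (0.06), and the mean with the sign of T2 turned was 0.14. The list's median was 0.113, and 2 of the 9 genes had an unadjusted p under 0.05 by limma, against 28.1% of all genes. Atp6v1b2, a proton pump subunit, had -0.25 ± 0.34, Atp6v1f -0.22 ± 0.29 and Atp6v0d1 -0.17 ± 0.20, the last below 0 on all 3 arrays. Atp6v1e1 (0.12 ± 0.13), Atp6v1d (0.13 ± 0.23) and Atp6ap2 (0.02 ± 0.04) had means above 0. The partner subunit Ostm1 had 0.06, -0.01 and 0.28 in pairs T1, T2 and T3.

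Of 27 listed osteoclast and resorption genes 9 were measured on all arrays, and 0 passed by limma, while 1, Clcn7, had an unadjusted p under 0.05 against 28.1% of all genes (median 0.0809; 5 means above 0). Snx10, a sorting nexin required for resorption, had 0.18 ± 0.29 and Nfatc1, the master transcription factor of osteoclast formation, had 0.10 ± 0.05. The 4 means below 0 were those of Atp6v1b2 (-0.25 ± 0.34), Mitf (-0.14 ± 0.30), Mmp9 (-0.07 ± 0.70) and Src (-0.045 ± 0.19). Acp5, Ctsk and Calcr, which define osteoclasts, are not among the measured genes. Of 24 osteoblast and osteocyte genes 4 were measured and 0 passed (median 0.0438; 0 had an unadjusted p under 0.05 by limma): the type I collagen chains, Cadm1 (0.23 ± 0.12) and the cadherin Cdh11 (0.16 ± 0.12), both adhesion molecules. The last pair was above 0 on all 3 arrays, unlike the collagens beside them. Of the coupling factors, Csf1, the growth factor of the osteoclast lineage, had 0.02 on T1, 0.84 on T2 and 0.57 on T3 (0.48 ± 0.42, adjusted p = 0.105 by limma), and the cytokine Il11 had -0.11 ± 0.08. Bglap, Ibsp, Runx2 and Sp7 are likewise not among the measured genes.

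**Figure D3:**
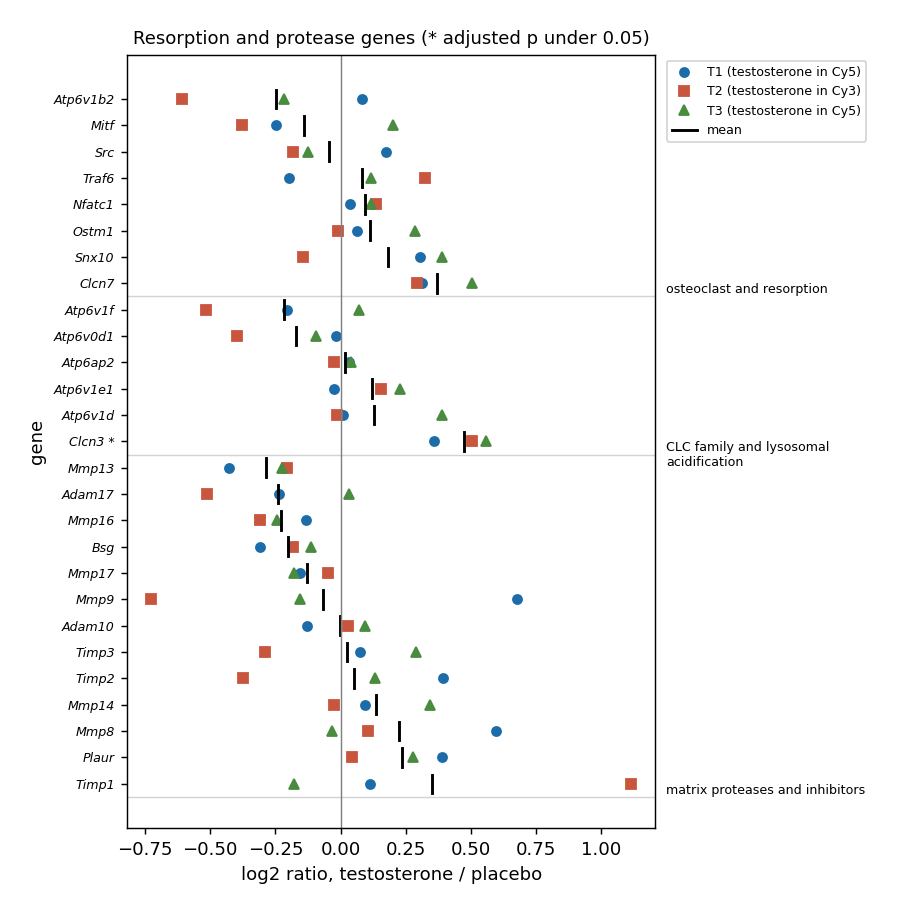
Log2 ratios of testosterone to placebo (horizontal axis) of the measured osteoclast, acidification and matrix protease genes, with a symbol per array and a black bar at the mean of 3 pairs; a gene of several lists is drawn once. Clcn3, marked with an asterisk, is the gene that passed, and Mmp9 has the widest spread, from -0.73 to 0.68.

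Because centring of an array shifts its genes together, differences between the 5 genes within an array were also taken. Of 10 pairs of genes 5 had a difference of the same sign on all 3 arrays. These pairs share genes, and the share over all pairs of genes tested was not counted. Col6a1 minus Clcn7 was -0.89, -1.30 and -1.36 in pairs T1, T2 and T3 (mean -1.18 ± 0.26, n = 3), and Col6a1 minus Mmp14 was -0.67, -0.98 and -1.20. Sparc minus Clcn7 was -0.72, -1.34 and -0.56. Mmp14 minus Clcn7 was smaller, at -0.22, -0.32 and -0.16. With the deposited signs, both matrix genes Col6a1 and Sparc thus lay below Mmp14 and Clcn7 in each pair, while with T2 turned they would lie above both on that array. Col1a1 kept no such order, being 0.78 above Clcn7 on T1 and below it on T2 and T3 (-1.46 and -0.66). With 3 pairs an exact two-sided sign-flip test cannot go below p = 0.25, so no test was made of these differences.

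The other cell types of the samples gave the following ratios by limma over all genes. Of 8 B-lineage genes 6 were lower (Cd79b, Bach2, Blk, Vpreb3, Pou2af1 and Il7r, from -2.98 to -1.56). Of 12 stromal genes Igfbp5 was lower (-1.57), and Angptl1 (0.85) and Grem1 (0.88) were higher. Of 4 adipocyte genes Scd1 was lower (-1.21), while Aoc3 had a mean of 0.41 and did not pass. Means above 0 numbered 1 of the 8 B-lineage, 7 of the 12 stromal and 1 of the 4 adipocyte genes. Some of these calls were lost when 1 array was left out: Angptl1 did not pass without T2 (adjusted p = 0.0555 by limma) or T3 (0.102), nor Grem1 (0.198 and 0.243), and Scd1 (0.0843) and Il7r (0.0611) did not pass without T2. Of all genes 4.91% passed in either direction, and 28.1% had an unadjusted p under 0.05 by limma. None passed among 6 muscle genes (Mylpf -0.69, Tpm1 -0.34; 5 with an unadjusted p under 0.05), 3 endothelial (Kdr -0.25, Tie1 -0.03; 0), 5 erythroid (Hbb-b1 0.35, Fech 0.36; 2), 5 neutrophil (Itgam 0.33, Mmp8 0.22; 0) and 8 macrophage genes (Mertk 0.33, Cd163 0.33; 3), and no cartilage gene had a value on all arrays. Means above 0 numbered 0 of the 6 muscle, 0 of the 3 endothelial, 3 of the 5 erythroid, 4 of the 5 neutrophil and 5 of the 8 macrophage genes. The muscle median was lowest on T2 (5 of the 6 genes), where the collagens and Sparc were also lowest, and the part of muscle in their values was not tested.

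**Figure D4:**
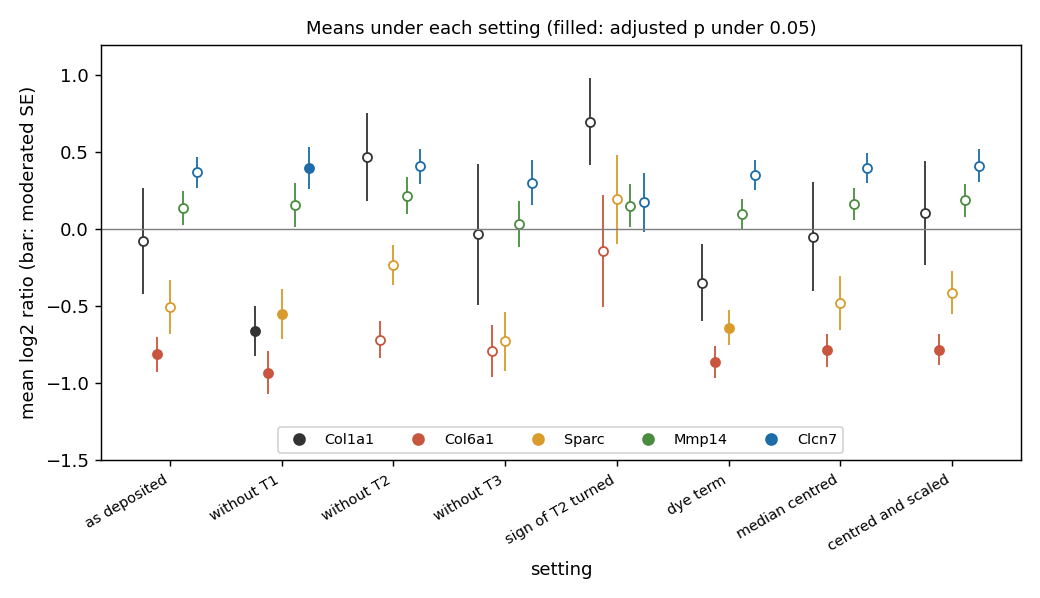
Mean log2 ratio of each of the 5 genes (vertical axis; bars are the moderated standard error) under the processing settings named on the horizontal axis; filled points passed an adjusted p of 0.05. Col6a1 stays below 0 and Clcn7 and Mmp14 above 0 in every setting drawn, while Col1a1 lies at 0.70 with the sign of T2 turned and at -0.66 without T1.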

How the data were processed

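Total RNA was turned into aminoallyl cDNA coupled to Cy3 or Cy5, per the labels' protocols. The authors deposited 1 signed log ratio per spot and array, taken as log2 because of its range (-3.37 to 4.47). Log base, scanner, background correction and filters have no statement in the sources used here. Every run of 361 spots had a mean near 0, so the ratios are relative to the average spot. Values existed for 9007 (T1), 6771 (T2) and 6982 (T3) of 11552 spots. Signal over background was not analysed here, and the number of arrays limits the precision (median standard error of a gene 0.107). Over tested spots T1 correlated at 0.422 with T2 and 0.488 with T3, and T2 with T3 at 0.734; the deposited signs were kept.

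Symbols came from the platform annotation through Entrez IDs and the RefSeq table of GRCm38.p6 (7880 spots with 1 gene matched), and 12 control spots were left out. Of the promoter table, 4 of 5 members had an entry, Col1a1 being the other. Means were tested against 0 by a two-sided moderated test (limma 3.58.1, R 4.3.3) over all spots and over gene means, with Benjamini-Hochberg adjustment. The procedure was tested on simulated data of 6039 spots, with shifts of 1 and of 2 set in 100 spots each. It recovered 99 and 100 of these, with 15 false calls among 214 calls. Shifts as small as the means of the 5 genes were not simulated. The pairs are separate animals. The members and gene lists were chosen with earlier results of these data known. Named are the members, every measured collagen, matrix metalloproteinase of the Mmp family, Timp and Clcn gene, in each list the genes that passed or else those of smallest p (3 in pathway lists, 2 in cell type lists), and the 3 genes nearest to each member. Mgp, Fn1, Ostm1, Nfatc1, Mitf, Src, Atp6v0d1, Atp6v1d, Atp6v1e1, Atp6v1f and Atp6ap2 were added after their values were seen. The alternatives are those given in the closing section.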

Additional observations from a re-analysis of the deposited data

How the results depend on the processing

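The 3 arrays set the limit here: over genes Col6a1 passed on all 3 together and without T1, and did not without T2 or T3, while over spots it also passed without T2 (adjusted p = 0.0426 by limma). Each value is already a ratio within a pair and there is 1 group, so the test of the mean against 0 is itself the paired comparison. Turning the sign of T2, as if its column were the ratio of placebo to testosterone, gave means of 0.70 for Col1a1 and 0.196 for Sparc, both reversed, and -0.14 for Col6a1, no longer past the threshold. In that setting 0 spots (20 with an unadjusted p under 0.05 by limma), 0 genes (19) and 0 genes of the pathway lists (0) passed, against 171, 170 and 2 as deposited. Leaving out 1 array at a time gave means of -0.66 to 0.469 for Col1a1, -0.93 to -0.72 for Col6a1, -0.73 to -0.23 for Sparc and 0.30 to 0.41 for Clcn7. The counts then ran from 38 (without T3) to 1095 (without T1) changed spots, 33 (without T3) to 623 (without T1) changed genes and 0 to 11 pathway genes. A dye term, with T2 as the only Cy3 array, gave Sparc -0.64 (passed), 1309 spots, 385 genes and 5 pathway genes. Median centring gave 54 spots, 63 genes and 1 pathway gene. Centring with scaling gave 676 spots and 262 genes, and Col1a1 was 0.108, reversed. A threshold of 0.10 gave 1165 spots and 498 genes. Robust eBayes, the median of spots, the spot-level fit and spots with values on at least 2 arrays changed no call of the 5 genes. The causes were not tested.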
